A study of Arabidopsis thaliana with 24 samples.

Results

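The uncapped-to-total ratio of each transcript was compared between the dxo1 mutant and wild type Col-0 of Arabidopsis thaliana in plants grown without abscisic acid (ABA). The comparison uses 8 of the 24 libraries of the series, chosen by their labels: 2 replicates each of dxo1 uncapped RNA, dxo1 total RNA, Col-0 uncapped RNA and Col-0 total RNA, all without ABA. Uncapped RNA was sequenced by GMUCT, genome-wide mapping of uncapped and cleaved transcripts, which collects RNAs that carry a free 5′ phosphate. The value followed is a difference of differences on the log2 scale, GMUCT minus total RNA in dxo1 less GMUCT minus total RNA in Col-0. A positive value means that a transcript had relatively more uncapped reads per total RNA read in dxo1. Plants of both genotypes were 12 days old and grew on MS medium under a long light period. The labels name one mutant genotype, dxo1, without its allele, and name both seedlings and bud tissue. The labels do not say that replicates came from separate plants, so p-values measure the spread between these libraries, which may be technical.

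Most plant mRNAs begin with a methylated guanosine cap that protects them from decay. Decapping leaves a 5′ phosphate, and so does cleavage within the transcript, for instance under microRNA guidance, and the exoribonuclease XRN4 of the cytoplasm degrades such ends. A minority of transcripts begin with NAD instead of the guanosine cap, and DXO1 is an enzyme known to remove that NAD cap. Arabidopsis dxo1 mutants are known to be pale and to grow poorly. A ratio of GMUCT to total RNA reads therefore sets the pool of uncapped ends against the abundance of the transcript, and it can differ through either of them.

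GMUCT libraries held 9280864 to 13940464 gene reads, and total RNA libraries 878113 to 1696427, with 27708923 to 44512367 multimapped reads in each total RNA library left uncounted. DXO1 (AT4G17620) was covered in GMUCT at 12.0 and 9.96 CPM in dxo1 (counts scaled to the size of each library), against 16.2 and 13.6 CPM in Col-0. In total RNA it had 6 reads over both dxo1 libraries, against 11 over both Col-0 libraries, too few for a ratio. Since the labels do not place the lesion, reads of this gene do not check the genotype. Of 11 floral organ markers, 1 had any read in dxo1 total RNA and 1 in Col-0 total RNA, and their summed GMUCT signal was 2.60 and 2.87 CPM in dxo1 against 3.75 and 3.68 CPM in Col-0. The defining markers of floral buds were thus near 0, while all 21 light-harvesting and Rubisco small subunit genes had reads in every group. The replicate libraries varied 11.9% in GMUCT and 29.7% in total RNA (biological coefficient of variation), so total RNA sets the error of most ratios.

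Of 4932 genes with enough reads in both assays, 16 changed their ratio at an adjusted p under 0.05 (edgeR quasi-likelihood test, Benjamini-Hochberg over all genes), 9 higher and 7 lower in dxo1. That is 0.324% of the genes tested, 0.182% higher and 0.142% lower. An unadjusted p under 0.05 was met by 727 genes (14.7%), and the median change over all genes was 0.04 on the log2 scale. Scaling by library size alone left 1 call, AT5G01175. The calls rest on few libraries. Without any 1 of the 4 GMUCT libraries no gene passed, and likewise without dxo1 total RNA replicate 1 (0 genes in each case with edgeR, and 539 to 678 at an unadjusted p under 0.05). Leaving out Col-0 total RNA replicate 1 gave 7 calls, leaving out Col-0 total RNA replicate 2 gave 5, and leaving out dxo1 total RNA replicate 2 gave 66. In such a fit the group left with 1 library is assumed to vary like the other groups. A fit that weights the assays by their own spread (limma voom) called 14 genes, of which 8 were among the 16. They were AT5G01175, AT2G40650, AT4G13495, TCH3, ARFA1D, AT3G59940, TIC and AT1G12620.

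**Figure D1:**
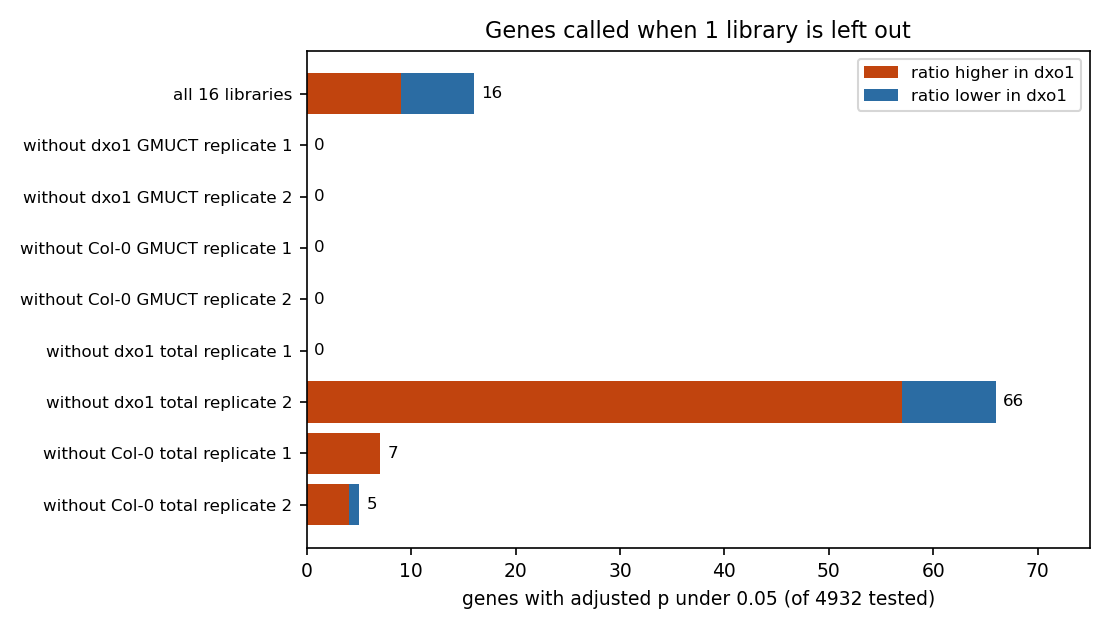
Number of genes with an adjusted p under 0.05 for the ratio change without ABA (horizontal axis, of 4932 tested), with all libraries and with 1 of the 8 libraries left out. Red bars count genes with a higher ratio in dxo1 and blue bars genes with a lower one; 16 passed with all libraries, 0 in 5 of the 8 fits and 66 without dxo1 total RNA replicate 2.

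AT4G13495, a noncoding RNA gene that overlaps an annotated microRNA gene, had 225 and 218 CPM of GMUCT signal in dxo1, against 101 and 85.9 CPM in Col-0. Its total RNA lay the other way, at 167 and 150 CPM in dxo1 against 337 and 308 CPM in Col-0. The groups did not overlap in either assay. The ratio rose by 2.28 ± 0.35 on the log2 scale (standard error, adjusted p = 0.0235), which is 4.86-fold. AT2G40650, a member of the PRP38 family of splicing proteins, had 71.6 and 72.3 CPM of GMUCT reads in dxo1 against 43.6 and 41.3 CPM in Col-0. In total RNA it had 103 and 209 CPM in dxo1 against 462 and 473 CPM in Col-0. Both assays separated the genotypes, total RNA by the wider margin, and the ratio rose by 2.36 ± 0.38 (adjusted p = 0.0235).

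TCH3, a calmodulin-like calcium sensor known as a touch-induced gene, had GMUCT values of 37.6 and 41.8 CPM in dxo1 and 18.2 and 21.1 CPM in Col-0. Its total RNA was 57.2 and 75.9 CPM in dxo1 and 121 and 86.7 CPM in Col-0. The GMUCT change was 1.02 ± 0.18 (adjusted p = 0.00166, edgeR). The total RNA change of -0.71 ± 0.26 did not pass (adjusted p = 0.137, edgeR). The ratio rose by 1.73 ± 0.31 (adjusted p = 0.0421). AT1G61100, annotated as a disease resistance protein of the TIR class, owed its change mostly to GMUCT. That signal stood at 111 and 106 CPM in dxo1 and 39.3 and 34.4 CPM in Col-0, while total RNA was 44.1 and 33.7 CPM in dxo1 and 51.9 and 52.0 CPM in Col-0. The ratio change was 1.96 ± 0.40 (adjusted p = 0.0478, and 0.11 with voom), and the call held in 4 of 14 alternative analyses and in 0 of 8 fits that left out 1 library.

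Other noncoding RNA genes passed too. AT5G01175 had 6.87 and 8.49 CPM in GMUCT in dxo1 against 2.59 and 3.03 CPM in Col-0, and 37.6 and 103 CPM in total RNA in dxo1 against 119 and 330 CPM in Col-0. The wide spread between its total RNA replicates stands beside a ratio change of 3.05 ± 0.60 (adjusted p = 0.0421). AT4G36648 hardly differed in GMUCT, with 51.4 and 47.4 CPM in dxo1 and 47.7 and 49.6 CPM in Col-0. Its ratio change of 2.10 ± 0.42 (adjusted p = 0.0421) came from total RNA at 19.6 and 8.44 CPM in dxo1 and 67.3 and 52.0 CPM in Col-0. AT2G42490, a copper amine oxidase of the family that oxidises polyamines, showed the same pattern: GMUCT at 73.0 and 65.5 CPM in dxo1 and 60.5 and 58.2 CPM in Col-0, total RNA at 26.1 and 21.1 CPM in dxo1 and 73.1 and 69.4 CPM in Col-0. Its ratio rose by 1.81 ± 0.36 (adjusted p = 0.0421). These are among the least stable calls: that of AT4G36648 held in 4 of 13 alternative analyses and that of AT2G42490 in 5 of 14, and both were lost with voom (adjusted p = 0.0802 and 0.0832) and in all 8 fits that left out 1 library.

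Among the genes with a lower ratio, AT3G59940 carried the clearest GMUCT difference of a protein-coding nuclear gene. It encodes a kelch-repeat F-box protein, of a family known to mark cytokinin response regulators and phenylpropanoid enzymes for degradation. Its GMUCT signal was 151 and 166 CPM in dxo1 against 435 and 475 CPM in Col-0, and its total RNA 248 and 272 CPM in dxo1 against 190 and 208 CPM in Col-0. The GMUCT change was -1.52 ± 0.22 (adjusted p = 0.000322, edgeR). The total RNA change of 0.39 ± 0.24 did not pass (adjusted p = 0.389, edgeR). The ratio fell by 1.92 on the log2 scale, with a standard error of 0.32 (adjusted p = 0.0244). ATCG00065, a chloroplast gene, had GMUCT values of 4.31 and 4.08 CPM in dxo1 and 17.0 and 18.9 CPM in Col-0, with total RNA at 71.9 and 65.4 CPM in dxo1 and 80.8 and 91.1 CPM in Col-0. Its ratio change was -1.80 ± 0.36 (adjusted p = 0.0421).

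TIC (TIME FOR COFFEE, a regulator of the circadian clock) had 178 and 189 CPM of GMUCT reads in dxo1 against 271 and 286 CPM in Col-0. In total RNA it had 185 and 226 CPM in dxo1 against 80.8 and 91.1 CPM in Col-0. The assays lay in opposite directions and the ratio changed by -1.87 ± 0.35 (adjusted p = 0.0421). In the joint edgeR fit the total RNA change of 1.27 ± 0.28 passed (adjusted p = 0.0183). The GMUCT change of -0.60 ± 0.22 did not (adjusted p = 0.0886, edgeR). BBX14, a B-box zinc finger protein of the CONSTANS-like kind, had 139 and 103 CPM in GMUCT in dxo1 and 170 and 163 CPM in Col-0. Its total RNA was 94.8 and 118 CPM in dxo1 and 26.9 and 34.7 CPM in Col-0, and the ratio changed by -2.29 ± 0.45 (adjusted p = 0.0421). For AT2G27680, an NAD(P)-linked oxidoreductase, GMUCT was level, at 41.7 and 37.5 CPM in dxo1 and 37.5 and 38.7 CPM in Col-0. Total RNA was 71.9 and 108 CPM in dxo1 and 23.1 and 21.7 CPM in Col-0, for a ratio change of -1.91 ± 0.37 (adjusted p = 0.0421).

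**Figure D2:**
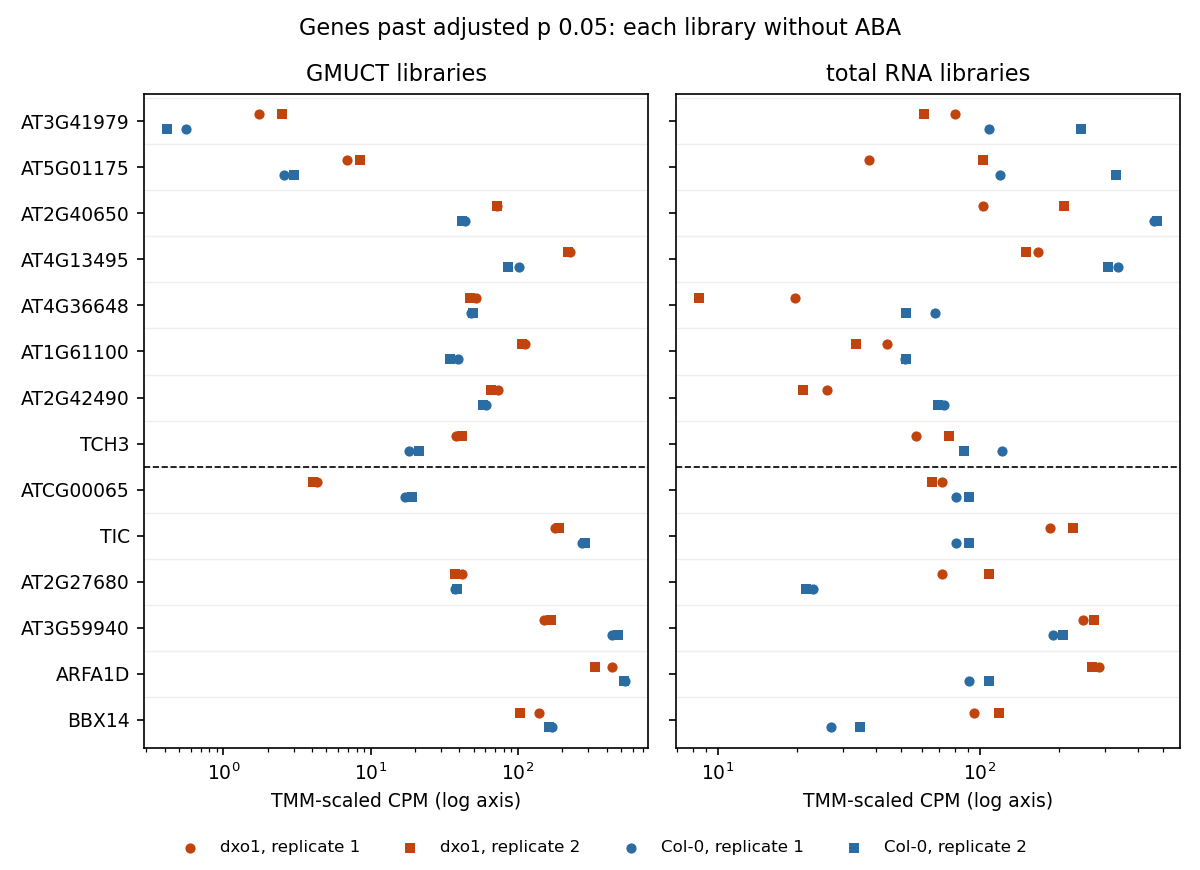
TMM-scaled CPM (log axis) of the 14 called genes with at least 10 reads in every group, in GMUCT libraries (left) and total RNA libraries (right) without ABA; red, dxo1; blue, Col-0; circles, replicate 1; squares, replicate 2. Genes above the dashed line had a higher ratio in dxo1 and genes below it a lower one; AT3G59940 separates in GMUCT at 151 and 166 CPM in dxo1 against 435 and 475 CPM in Col-0, while AT2G27680 separates in total RNA.

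The other 4 calls have further limits, from near-identical copies or from under 10 total RNA reads in a group. Few total RNA reads also limit calls described above. AT2G27680 had 17 reads over both Col-0 libraries and BBX14 had 22. AT4G36648 had 16 over both dxo1 libraries, and AT1G61100 had 43 in dxo1 and 39 in Col-0. AT3G41979 is a 5.8S ribosomal RNA gene, one of many near-identical copies, and reads that match several copies were left uncounted. Its ratio change was 3.25 ± 0.60 (adjusted p = 0.0421). ARFA1D, a small GTPase of vesicle traffic with near-identical paralogs, changed by -1.95 ± 0.37 (adjusted p = 0.0421). AT1G12620, a pentatricopeptide repeat protein, had 54 total RNA reads in dxo1 and 2 in Col-0, which is 18.7 times as many per library size (95% exact interval 4.92 to 158, counting error only), against GMUCT values of 7.69 and 6.91 CPM in dxo1 and 9.68 and 7.60 CPM in Col-0. AE7, of cytosolic iron-sulfur cluster assembly, had 4 total RNA reads in dxo1 and 32 in Col-0, with a ratio change of 3.63 ± 0.76 (adjusted p = 0.0499). Its call held in 3 of 13 alternative analyses and in 0 of 8 fits that left out 1 library. Just outside the threshold stood AT1G14460 at -3.22 ± 0.68 (adjusted p = 0.0567), CIPK3, a calcium-regulated kinase, at 1.91 ± 0.41 (adjusted p = 0.0567) and PPOX at -2.52 ± 0.54 (adjusted p = 0.0611), all by edgeR.

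The 2 assays contributed unequally. Total RNA gave the larger share of the change in 10 of the 16 genes and GMUCT in 6, and the parts had opposite signs in 14. The genes were called for a difference between these parts, which by itself favours opposite signs. The share of opposite signs over all genes was not counted, so the 14 are a description only. Over all genes the GMUCT part alone passed for 317 higher (6.43%) and 272 lower genes (5.52%), together 11.9% of those tested, among them 7 of the 16. The total RNA part passed for 69 higher (1.40%) and 106 lower genes (2.15%), together 3.55%, among them 10 of the 16. These part counts, like the ratio calls and the standard errors given here, come from a fit in which both assays share their estimate of spread. Its common value was 17.3%, between the 11.9% of GMUCT and the 29.7% of total RNA, so the error of total RNA can be understated. In fits of 1 assay, chosen after the data were seen, the 8 GMUCT libraries gave 1357 calls, 10 of the 16 genes among them. The 8 total RNA libraries gave 3 calls, none of them among the 16, for which the lowest adjusted p was 0.0532 (AE7). A change of the total RNA level of these genes was therefore not detectable from total RNA alone. The change of the GMUCT signal of AT1G61100, AT3G59940, ATCG00065, TCH3, AT4G13495, AT5G01175 and AT3G41979 passed in either fit (all edgeR). GMUCT reads do not tell decapping from other origins of a 5′ phosphate. ATCG00065 is a chloroplast gene and AT3G41979 a ribosomal RNA gene, so their values are not read as decapping.

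**Figure D3:**
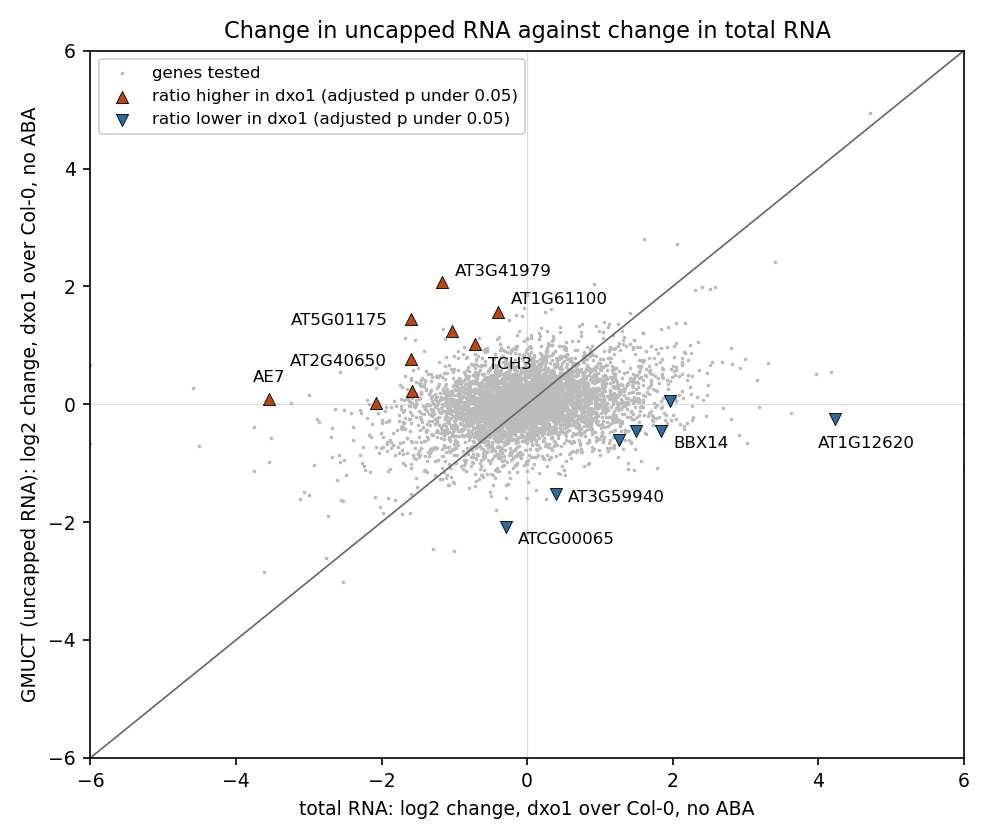
Log2 change in GMUCT (vertical) against log2 change in total RNA (horizontal), dxo1 over Col-0 without ABA, for the genes tested (grey) and the 16 called genes (red triangles, ratio higher in dxo1; blue triangles, ratio lower); the diagonal marks an equal change in both assays, and values beyond 6 are drawn at the edge. The called genes lie away from the diagonal because they were selected by the ratio change, AT3G59940 and ATCG00065 mostly through GMUCT and BBX14 mostly through total RNA.

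Genes were next read by function. None of the 6 tested genes for decapping and decay towards the 3′ end passed for the ratio, with a median of 0.30 against 0.04 over all genes. XRN4, with 10 total RNA reads in dxo1 and 8 in Col-0, was too shallow for a ratio. VCS, a scaffold of the decapping complex, had GMUCT values of 14.6 and 17.8 CPM in dxo1 and 9.86 and 10.7 CPM in Col-0, a GMUCT change of 0.66 ± 0.20 that passed (adjusted p = 0.0372), with a ratio change of 0.96 ± 0.55 that did not (adjusted p = 0.43). The list of cap enzymes, cap binding proteins and NAD-hydrolysing enzymes had 3 tested members of 7. In GMUCT all 3 passed as higher in dxo1, against 6.43% of all genes. CBP20, the small subunit of the nuclear cap binding complex, had 46.3 and 47.2 CPM in dxo1 against 24.7 and 24.1 CPM in Col-0. EIF4E, the cytoplasmic cap binding protein, had 15.7 and 17.5 CPM in dxo1 against 9.86 and 8.66 CPM in Col-0, and NUDT7, a nudix hydrolase, 35.2 and 40.7 CPM against 21.7 and 18.2 CPM. Their GMUCT changes were 0.94 ± 0.20, 0.84 ± 0.20 and 0.92 ± 0.22 (adjusted p = 0.0052, 0.012 and 0.0131). Their total RNA changes were 1.19 ± 0.47, 0.83 ± 0.38 and -0.37 ± 0.60, and none passed (adjusted p = 0.175, 0.237 and 0.783, all edgeR). Ratio changes of -0.25 ± 0.52, 0.01 ± 0.41 and 1.29 ± 0.65 did not pass (adjusted p = 0.855, 0.997 and 0.368). Of the 5 tested genes of nonsense-mediated decay, the SKI complex and deadenylation, 4 had a negative ratio change, against 2380 of all 4932 genes. None passed, and the median was -0.52.

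For the small RNA pathway, whose Dicer enzymes cut double-stranded precursors, 5 of 6 tested members had a negative ratio change. None passed, the median was -0.45, and 2380 of all 4932 genes were negative. In total RNA 0 of the 6 were below 0. Without ABA, DCL1 and DCL2 had 35 and 36 total RNA reads in dxo1 against 6 and 7 in Col-0. Genes that pass the filter through dxo1 total RNA tend to a negative ratio, so these signs are no result about the pathway. DCL1, the Dicer of microRNA maturation, had 16.9 and 16.9 CPM in GMUCT in dxo1 against 10.9 and 10.5 CPM in Col-0. In total RNA it had 31.1 and 33.7 CPM in dxo1 against 7.69 and 8.67 CPM in Col-0, which is 35 reads against 6. Both parts passed in the joint fit, GMUCT at 0.65 ± 0.17 (adjusted p = 0.0199) and total RNA at 2.01 ± 0.52 (adjusted p = 0.0385, and 0.175 in total RNA alone). The ratio change of -1.35 ± 0.56 did not (adjusted p = 0.283). DCL1 also overlaps an annotated microRNA gene. DCL2, which acts in antiviral silencing, rose in GMUCT, with 11.7 and 12.0 CPM in dxo1 against 6.25 and 5.87 CPM in Col-0 (change 0.96 ± 0.23, adjusted p = 0.0125). Among 15 tested targets of conserved microRNAs, whose slicing leaves a 5′ phosphate, 8 had a positive and 7 a negative ratio change, none passed, and the median was 0.07. PHB, a class III homeodomain factor cut under miR165/166, had GMUCT values of 19.4 and 22.7 CPM in dxo1 and 13 and 13.4 CPM in Col-0, and a ratio change of 0.88 ± 0.44 (adjusted p = 0.368).

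PR1, a salicylate-induced defence gene, differed in both assays but not in its ratio beyond the error. It had 18.7 and 22.7 CPM in GMUCT in dxo1 against 0.324 and 1.07 CPM in Col-0, and 38 total RNA reads in dxo1 against 1 in Col-0. The GMUCT change was 4.95 ± 0.37 (adjusted p = 1.58e-06). Scaled to library size, its total RNA reads were 26.3 times as many in dxo1 (95% exact interval 4.44 to 1064, counting error only). Uncapped and total reads were both higher in dxo1, and the ratio change was 0.24 ± 1.87 (adjusted p = 0.965).

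Nuclear genes for photosystem subunits had the most one-sided ratios of the photosynthesis lists. Of 23 members, 21 had a negative ratio change, against 2380 of all 4932 genes. None passed, and the median was -0.44 against 0.04 over all genes. In GMUCT all 23 were below 0, 8 passed as lower and the median was -0.73, against 5.52% of all genes passing as lower. In total RNA 15 were below 0 and 2 passed as lower, with a median of -0.31, against 2.15% of all genes passing as lower. PSAG, a photosystem I subunit, had GMUCT values of 230 and 252 CPM in dxo1 and 478 and 580 CPM in Col-0, with total RNA at 185 and 150 CPM in dxo1 and 192 and 252 CPM in Col-0. Its GMUCT change was -1.13 ± 0.23 (adjusted p = 0.00454) and its ratio change -0.75 ± 0.34 (adjusted p = 0.329). PSAL, another photosystem I subunit, had 150 and 162 CPM in GMUCT in dxo1 and 286 and 283 CPM in Col-0, while its total RNA overlapped at 266 and 232 CPM in dxo1 and 227 and 265 CPM in Col-0. Its ratio change was -0.90 ± 0.36 (adjusted p = 0.266). The median stayed negative under each of 4 scalings of the libraries, between -0.33 and -0.48. Genes that serve as references for transcript levels (10 tested) had a median of -0.07 and none passed. ACT7, an actin, had GMUCT values of 114 and 96.7 CPM in dxo1 and 133 and 135 CPM in Col-0, with a ratio change of -0.84 ± 0.35 (adjusted p = 0.283).

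The 21 light-harvesting and Rubisco small subunit genes had a median ratio change of 0.09, with medians of -0.40 in GMUCT and -0.42 in total RNA. RBCS1A, the main Rubisco small subunit, was level in both assays, with GMUCT at 2220 and 2520 CPM in dxo1 and 2300 and 2540 CPM in Col-0, and a ratio change of -0.08 ± 0.46 (adjusted p = 0.952). LHCB1.1, an antenna protein with near-identical copies, had a ratio change of 0.15 ± 0.38 (adjusted p = 0.882). Chlorophyll synthesis genes (16 tested) had a median of -0.07, and HEMA1, the entry enzyme of tetrapyrrole synthesis, the smallest p among them. Its GMUCT values were 160 and 155 CPM in dxo1 and 112 and 97.3 CPM in Col-0, its total RNA 451 and 415 CPM in dxo1 and 564 and 464 CPM in Col-0, and its ratio change 0.84 ± 0.35 (adjusted p = 0.283). Photorespiration genes (11 tested) had a median of -0.04 and plastid transcription genes (4 tested) one of 0.06. Of 82 chloroplast-encoded genes, ATCG00065 was the only one whose ratio passed, and 39 were positive and 43 negative. In GMUCT 17 passed as lower and 3 as higher, against 5.52% and 6.43% of all genes. In total RNA 14 passed as lower and 0 as higher, against 2.15% and 1.40% of all genes. Their median change was -0.59 in GMUCT and -0.46 in total RNA, so both assays were lower in dxo1. Among 9 tested ABA-induced genes, 6 were negative and none passed. ABI1, a phosphatase that restrains ABA signalling, fell in GMUCT, with 59.8 and 51.7 CPM in dxo1 and 92.7 and 99.9 CPM in Col-0 (change -0.79 ± 0.23, adjusted p = 0.0319), and its ratio change was -1.42 ± 0.51 (adjusted p = 0.22).

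**Figure D4:**
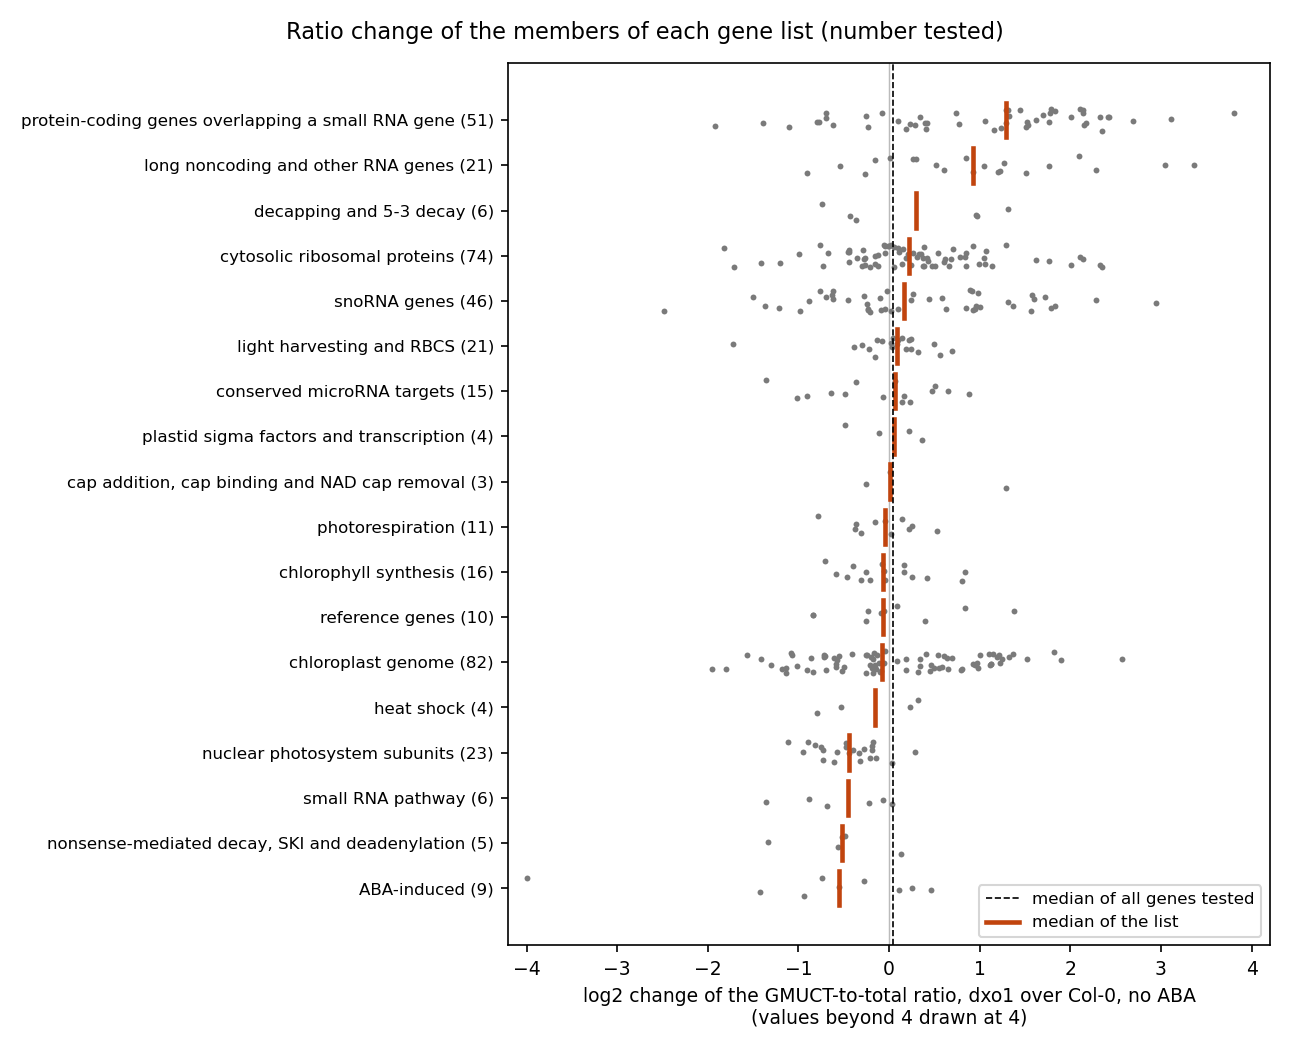
Log2 change of the GMUCT-to-total ratio, dxo1 over Col-0 without ABA (horizontal axis), for each tested member (grey points) of each gene list (rows, with the number tested); red bars mark list medians and the dashed line the median of all genes tested, 0.04. Values beyond 4 are drawn at 4. Protein-coding genes that overlap a small RNA gene have a median of 1.29 and nuclear photosystem genes one of -0.44.

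Noncoding RNA genes made up 4 of the 9 genes with a higher ratio and none of the 7 with a lower one, while genes annotated as noncoding RNA were 74 of the 4932 tested (1.5%). Of these 74, 46 were snoRNA genes, none of which passed. Long noncoding and other RNA genes, a class drawn from the RefSeq annotation after values were seen, had 21 tested members. Of these 17 were positive and 3 passed (AT5G01175, AT4G13495 and AT4G36648), with a median ratio change of 0.92. Over all 4932 genes 2552 were positive and 0.182% passed as higher. Of the 21, 10 also overlap an annotated small nucleolar, small nuclear or tRNA gene, as do the genes of the class described next. The median change of the 21 was -0.47 in GMUCT and -1.39 in total RNA. The widest change among them that did not pass was AT3G07215, with 12.2 and 10.5 CPM in GMUCT in dxo1 and 13 and 16.7 CPM in Col-0. Its total RNA was 14.7 and 63.3 CPM in dxo1 and 185 and 859 CPM in Col-0, and the ratio change 3.37 ± 0.78 (adjusted p = 0.0727). Without dxo1 total RNA replicate 1 the median ratio change of the class was 0.30, without Col-0 total RNA replicate 2 it was 0.43, and without dxo1 total RNA replicate 2 it was 2.01.

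Protein-coding genes that overlap an annotated small nucleolar RNA (snoRNA), small nuclear RNA or tRNA gene, a second class chosen after values were seen, also had mostly positive ratio changes. Of 51 tested, 40 had a positive ratio change, against 2552 of all 4932 genes, with a median of 1.29, but none passed. At an unadjusted p under 0.05, 26 had a positive change, as did 400 of all 4932 genes. Their median change was 0.11 in GMUCT and -1.08 in total RNA. AT1G67430, of ribosomal protein family L22p/L17e, had 68.6 and 70.9 CPM in GMUCT in dxo1 and 54.3 and 60.1 CPM in Col-0. Its total RNA was 502 and 1120 CPM in dxo1 and 2370 and 2970 CPM in Col-0, and the ratio change 2.01 ± 0.48 (adjusted p = 0.0772). eIFiso4G1, a scaffold of translation initiation, had 86.4 and 49.4 CPM in GMUCT in dxo1 and 64.5 and 74.4 CPM in Col-0, overlapping values, and 175 and 335 CPM in total RNA in dxo1 against 912 and 772 CPM in Col-0. Its ratio change was 1.70 ± 0.43 (adjusted p = 0.0967). The snoRNA share of total RNA gene reads moved with these values, at 1.14% and 6.59% in dxo1 against 8.58% and 11.2% in Col-0. The chloroplast share of gene reads in these libraries was 43.7% and 60.9% in dxo1 and 28.2% and 43.9% in Col-0, and the share of uniquely mapped reads outside annotated genes 19.9% and 18.2% in dxo1 and 35.8% and 32.9% in Col-0. The part of these shares in the result was not tested. The median of the class was 0.69 without dxo1 total RNA replicate 1, 0.72 without Col-0 total RNA replicate 2 and 2.24 without dxo1 total RNA replicate 2. An alternative chosen after the data were seen removed all genes that overlap a small RNA gene, microRNA genes included. It also removed the small RNA and ribosomal RNA genes themselves. In it 10 genes passed for the ratio, 3 of them higher. The higher calls AT4G13495 and AT3G41979 were among the genes removed, so they could not pass. The higher calls AT4G36648, AT1G61100, AT2G42490 and AE7 were still tested in it and no longer passed.

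The F-box gene AT3G59940 belongs to a small kelch-repeat family, looked at after its value was seen. Of 4 members 3 were tested and all 3 had a negative ratio change, of which AT3G59940 passed. Over all 4932 genes 2380 were negative. AT2G44130 had 26.1 and 31.4 CPM in GMUCT in dxo1 and 82.7 and 91.6 CPM in Col-0, with total RNA at 22.9 and 31.6 CPM in dxo1 and 26.9 and 13 CPM in Col-0. Its GMUCT change was -1.60 ± 0.18 (adjusted p = 4.26e-05) and its ratio change -1.87 ± 0.46 (adjusted p = 0.0868). AT1G80440 had 162 and 127 CPM in GMUCT in dxo1 and 237 and 245 CPM in Col-0. Its total RNA was 93.2 and 67.5 CPM in dxo1 and 21.2 and 60.7 CPM in Col-0, the larger part of its change. The ratio change was -1.94 ± 0.45 (adjusted p = 0.0727). In the untested member AT1G15670 the GMUCT values were 45.1 and 33.0 CPM in dxo1 and 64.4 and 70.3 CPM in Col-0. The uncapped signal of each of the 4 genes was lower in both dxo1 libraries than in both Col-0 libraries. How many of all genes separate this way was not counted, so this is no result about the family. With ABA no tested member had a negative ratio change. The values were 0.03 ± 0.32 for AT3G59940, 1.76 ± 0.48 for AT2G44130 and 0.43 ± 0.43 for AT1G80440.

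The same ratio change was set against that of the ABA-treated plants, which use 8 other libraries. Under ABA the ratio of 41 genes rose (0.831% of those tested) and that of 59 fell (1.20%), together 2.03%. Of the 16 genes called without ABA, 11 had the same sign with ABA, against 57.5% of all genes tested, and 2 passed there too. AT4G13495 had a ratio change of 3.13 ± 0.37 with ABA (adjusted p = 0.000732) and TIC one of -1.48 ± 0.35 (adjusted p = 0.0409). Close to its value without ABA was also AT3G41979, at 2.66 ± 0.68 with ABA (adjusted p = 0.0526). Near 0 with ABA were TCH3 at 0.04 ± 0.38 (adjusted p = 0.984), AT3G59940 at 0.03 ± 0.32 (adjusted p = 0.979) and AT2G40650 at 0.05 ± 0.39 (adjusted p = 0.973). The difference between the ratio changes without and with ABA was tested directly, and 0 of 4932 genes passed with edgeR, 528 had an unadjusted p under 0.05, voom called 0 and the DESeq2 Wald test 75. For AT3G59940 and AT2G40650 the adjusted p of that difference was 0.189. Across the 4932 genes the ratio changes without and with ABA had a Pearson r of 0.263 and a Spearman rho of 0.255, as a description, since genes are not independent replicates.

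**Figure D5:**
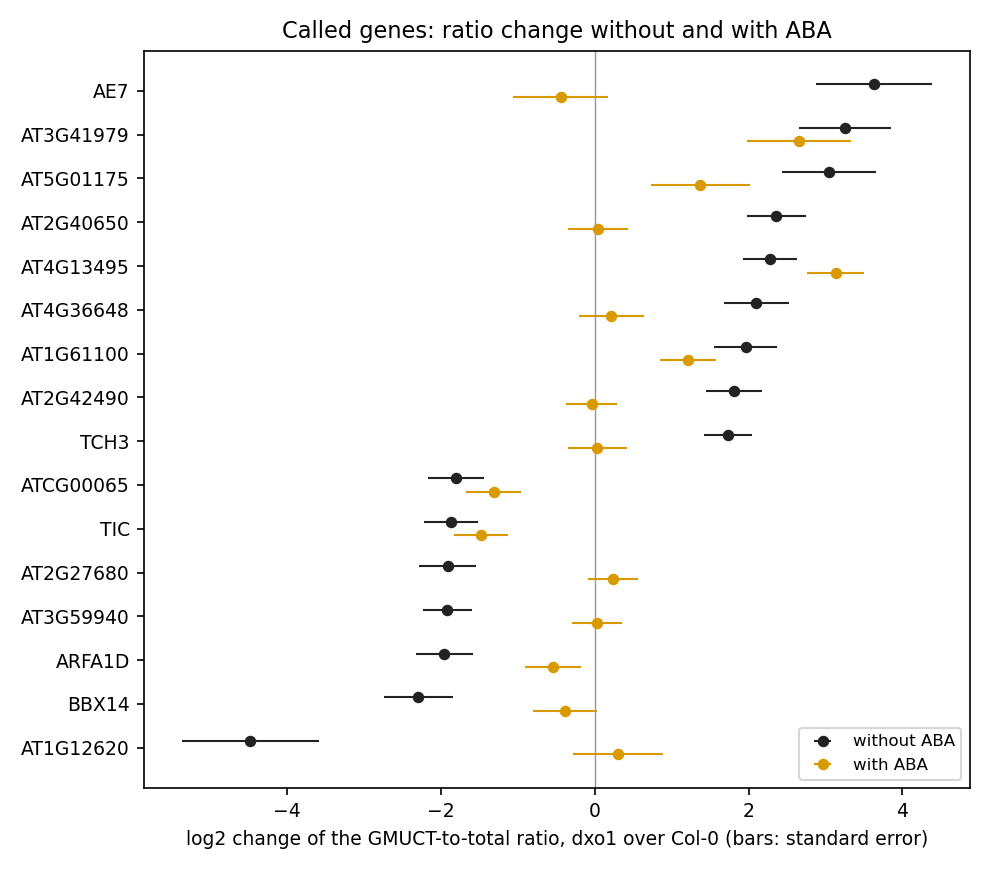
Log2 change of the GMUCT-to-total ratio, dxo1 over Col-0 (horizontal axis, bars are standard errors), without ABA (black) and with ABA (yellow) for the 16 genes called without ABA. AT4G13495, TIC and AT3G41979 have like values in both, whereas TCH3, AT3G59940 and AT2G40650 lie near 0 with ABA.

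NAD-capture libraries of the same genotypes without ABA, which the ratio does not use, gave a further readout of the called genes, not tested here. NAD reads were scaled to the gene reads of each library. Of the 16 genes, 6 had higher scaled values in both dxo1 libraries than in both Col-0 libraries, against 38.1% of the genes tested. Lower scaled values in both were found for 2, against 8.43%. Both shares are near the background, so the NAD reads do not set the called genes apart. AT3G59940, whose GMUCT signal was lower in dxo1, had 86.2 and 95.7 CPM of NAD reads in dxo1 and 47.0 and 61.7 CPM in Col-0, scaled to the gene reads of each library. AT4G13495 had 55.3 and 49.0 CPM in dxo1 and 21.8 and 32.7 CPM in Col-0. AT3G41979, the 5.8S ribosomal RNA gene, lay the other way, with 34.1 and 26.8 CPM in dxo1 and 36.6 and 35.5 CPM in Col-0.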

How the data were processed

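The deposited files hold raw read counts per gene, 1 file per library, with 28775 genes and 5 summary rows that were dropped. Per the submitters' processing notes, cutadapt, STAR 2.4.2a and HTSeq and the TAIR10 build were used; how HTSeq was set is not given in the sources used here. Reads were 50 nt, per the labels. Of the gene IDs, 28009 (97.3%) matched RefSeq names of TAIR10.1, which was used for names and overlaps only. Counts of the 16 GMUCT and total RNA libraries (8 groups of 2) were scaled by TMM and fitted with edgeR 4.0.16 (R 4.3.3). A gene had to pass filterByExpr (minimum count 10) in each assay separately. Contrasts were tested by the quasi-likelihood F test with Benjamini-Hochberg adjustment over 4932 genes at 0.05. The standard error is the log2 change divided by the square root of F, hence approximate. CPM are TMM-scaled, so they depend on the composition of each library, and cannot be compared between genes of different length. Alternatives used limma 3.58.1, DESeq2 1.42.0, other scalings, filters and libraries.

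Named genes were the 10 largest changes each way that passed with at least 10 reads in each group, up to 3 per list by smallest p, and DXO1, XRN4, PR1, RBCS1A and LHCB1.1; not all are printed. The comparison, its members and the lists were chosen with earlier results of these data known. The annotated classes, the kelch family and the members named from them were chosen after values were seen.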

Additional observations from a re-analysis of the deposited data

How the results depend on the processing

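Every called gene kept its sign under every alternative (342 of 342 values for 16 genes), while the number of calls moved. The ratio change without ABA gave 16 calls, 13 with DESeq2 size factors, 16 with TMM within each assay, 14 with voom and 11 without organelle genes. It gave 1 with library size alone, 145 with the DESeq2 Wald test, 124 with no low-count filter, 34 with a joint filter, 10 with at least 10 reads in each group, 8 among nuclear protein-coding genes, 44 in a fit of its own groups, and 10 without small RNA genes and their overlaps. With 1 library left out it gave 0 to 66. The GMUCT part gave 589 calls, 38 with library size alone, 1351 with the Wald test, 3066 unfiltered, 1648 in a fit of its groups, 1357 in the GMUCT libraries, and 69 to 223 with 1 library left out. The total RNA part gave 175 calls, 90 with library size alone, 402 with the Wald test, 318 unfiltered, 3 in the total RNA libraries, and 29 to 152 with 1 left out. With ABA the ratio gave 100 calls, 1 with library size alone, 402 with the Wald test, 205 unfiltered, 2 in a fit of its groups and 2 to 574 with 1 left out. The difference between treatments gave 0 calls, 75 with the Wald test, 13 unfiltered and 0 to 42 with 1 left out; a fit of its own groups is the main fit.

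Whether replicate numbers pair the libraries is not known. Differences between replicates correlated across genes at -0.065 to 0.165 between groups, and correlations this weak cannot decide it, given the spread of total RNA. A replicate block gave 14 calls for the ratio without ABA, and a block joining the 2 assays of the same genotype, treatment and number gave 0 with edgeR (510 at an unadjusted p under 0.05). The causes of these shifts were not tested. Depth limits the ratio: with 10 to 29 reads in the shallowest group the median standard error was 0.54 on the log2 scale (2691 genes), against 0.40 at 100 reads or more (405 genes).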
